A study of Mus musculus with 6 samples.

Results

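Annexins and the S100 proteins that bind them were followed in mouse liver 1 day after surgical blockage of bile outflow. The set was fixed by name and holds 10 genes, the 8 annexins Anxa1 to Anxa7 and Anxa11 and the 2 S100 partners S100a6 and S100a10, and the probe sets were found through the array's gene symbols. Of these, 9 genes had 13 probe sets of their own, out of 8251 named genes on the array, and 12 of those probe sets, covering all 9 genes, passed the filter on low signals. Anxa11 was given no value, because its probe set is also annotated to Gm2260 and Gm2274.

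Liver RNA came from male wild-type C57BL/6J mice of 8 to 10 weeks, 1 mouse per array. In the BDL (bile duct ligation) group, 3 mice had the duct ligated and cut under methoxyflurane, and their livers were taken 1 day later. In the sham group, 3 mice had the abdomen opened in the same way with the duct left intact, and were sampled at the same time. The BDL mice are numbered 1, 12 and 3 and the sham mice 1, 2 and 3. RNA of whole liver was measured, so fewer cells of a type and less RNA per cell cannot be told apart.

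Annexins share a core that binds acidic phospholipids when calcium rises, and each has its own N-terminal tail. They organise membranes in endocytosis, exocytosis and the sealing of membrane wounds. S100 proteins are small EF-hand proteins that bind the tails of certain annexins. S100a10 holds Anxa2 in a complex at the plasma membrane that also binds plasminogen and its activator, and S100a6, or calcyclin, binds Anxa11 among other partners. Hepatocytes, bile duct cells, endothelium and leukocytes all carry annexins, in different proportions.

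On each array the signals had been scaled to nearly the same 2% trimmed mean (1501). Sham replicate 1 stood apart at low signals, where 12.5% of probe sets lay at or under the floor of 152.7 used here (the 25th percentile of all values), against 24.5% to 31.3% on the other 5 arrays. The deposited signals are printed as they stand, and for folds and tests a signal under the floor was raised to it. The 9 hepatocyte markers on the array, among them albumin, were each above the floor on at least 1 array. Differences are BDL minus sham on the log2 scale, from limma's linear model over all 9542 tested probe sets, with moderated standard errors (SE) and Benjamini-Hochberg adjusted p-values. No probe set of any gene passed an adjusted p of 0.05 (share called, 0%). At an unadjusted limma p under 0.05, 236 of 6892 genes were higher (3.42%) and 157 lower (2.28%) in BDL. Differences are therefore given as values and not as calls, with an SE for each tested probe set of the 9 annexin and S100 genes.

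Promoter windows are shown for the 4 genes with the larger differences that RefSeq's promoter table (build GRCm38.p6) holds, Anxa1, Anxa2, Anxa5 and S100a6, each running from 250 bases before to 50 bases after the annotated start, 5′ to 3′ on the gene's strand. Capitals mark matches, on either strand, to any of 8 searched motifs: the TATA box TATAAA, the GC box GGGCGG, the CCAAT box CCAAT, the AP-1 site TGANTCA, the cyclic AMP response element TGACGTCA, the E-box CACGTG, the antioxidant response element core TGACNNNGC, and the CArG box bound by serum response factor. No matches overlapped in these windows.
Anxa1, chr19:20390622-20390921, minus strand: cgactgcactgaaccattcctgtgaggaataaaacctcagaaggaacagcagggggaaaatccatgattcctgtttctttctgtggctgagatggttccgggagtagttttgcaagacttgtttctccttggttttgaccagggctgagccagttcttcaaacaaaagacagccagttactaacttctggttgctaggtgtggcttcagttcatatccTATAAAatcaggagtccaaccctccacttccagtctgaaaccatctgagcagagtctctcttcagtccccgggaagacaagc
Anxa2, chr9:69453433-69453732, plus strand: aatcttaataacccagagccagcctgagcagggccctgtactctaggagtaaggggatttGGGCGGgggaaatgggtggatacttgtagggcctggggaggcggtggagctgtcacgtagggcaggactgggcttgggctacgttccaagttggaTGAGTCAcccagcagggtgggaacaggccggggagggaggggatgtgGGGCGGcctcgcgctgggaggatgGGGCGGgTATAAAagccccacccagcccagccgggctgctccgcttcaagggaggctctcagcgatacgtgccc
Anxa5, chr3:36475838-36476137, minus strand: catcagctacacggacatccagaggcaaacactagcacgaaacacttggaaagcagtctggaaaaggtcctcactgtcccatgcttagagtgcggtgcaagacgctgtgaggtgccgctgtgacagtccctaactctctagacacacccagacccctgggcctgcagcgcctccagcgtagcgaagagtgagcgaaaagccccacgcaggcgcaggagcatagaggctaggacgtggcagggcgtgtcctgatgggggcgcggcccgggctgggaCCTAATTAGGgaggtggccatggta
S100a6, chr3:90612644-90612943, plus strand: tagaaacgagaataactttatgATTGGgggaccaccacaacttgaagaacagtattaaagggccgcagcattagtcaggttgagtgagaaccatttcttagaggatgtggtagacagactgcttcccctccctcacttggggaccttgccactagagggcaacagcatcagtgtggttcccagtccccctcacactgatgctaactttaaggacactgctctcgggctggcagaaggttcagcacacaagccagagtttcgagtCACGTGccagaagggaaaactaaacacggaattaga
The 4 windows had no motif in common. Anxa1 had a TATA box beginning 32 bases before the start, and Anxa2 had one 17 bases before it, a motif found in 13.6% of the 32851 promoters in the table. Anxa2 also had 3 GC boxes and an AP-1 site 95 bases before the start, and these motifs are in 35.7% and 7.81% of all promoters. Anxa5 held a CArG box 25 bases after the start (1.63% of all promoters). S100a6 held an E-box 14 bases after the start (7.15%) and a CCAAT box, as ATTGG, 228 bases before it (37.4%). In all, 7 of the 10 genes had 9 windows in the table, and Anxa3, Anxa6 and S100a10 were not matched. A match describes the letters only.

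The comparison of BDL with sham liver asked how annexin and S100 transcripts stood 1 day into blocked bile flow. Signals of S100a6, Anxa5, Anxa3, Anxa2 and Anxa1 were 1.96-fold to 2.78-fold higher in BDL by geometric means with signals under the floor raised to it, and that of S100a10 was 1.62-fold higher. Anxa4, Anxa6 and Anxa7 differed by 0.13, -0.01 and 0.28 on the log2 scale, within the spread of the mice, and their groups overlapped. For 5 of the 9 genes (Anxa1, Anxa3, Anxa5, S100a6 and S100a10) all BDL signals lay above all sham signals, beside 6.33% of all 6892 tested genes, and for 0 of 9 all lay below, beside 4.27%. An unadjusted limma p under 0.05 with a higher BDL mean was found for 5 of 9 (Anxa1, Anxa2, Anxa3, Anxa5 and S100a6), beside 3.42% of all genes, and with a lower one for 0 of 9, beside 2.28%. None of the 9 passed the adjusted threshold. Both counts include Anxa3, which passed the filter only through its BDL signals and whose sham spread was set to 0 by the floor. Without it they were 4 of 8 each. These still include S100a6, with only 1 sham signal above the floor, which also needed its BDL signals to pass the filter and whose sham spread the floor narrowed. The count of 5 by p was 3 without BDL replicate 1, without BDL replicate 3 or without sham replicate 3. The genes were listed with earlier results of these data known, so these shares describe the list and do not test it.

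**Figure D1:**
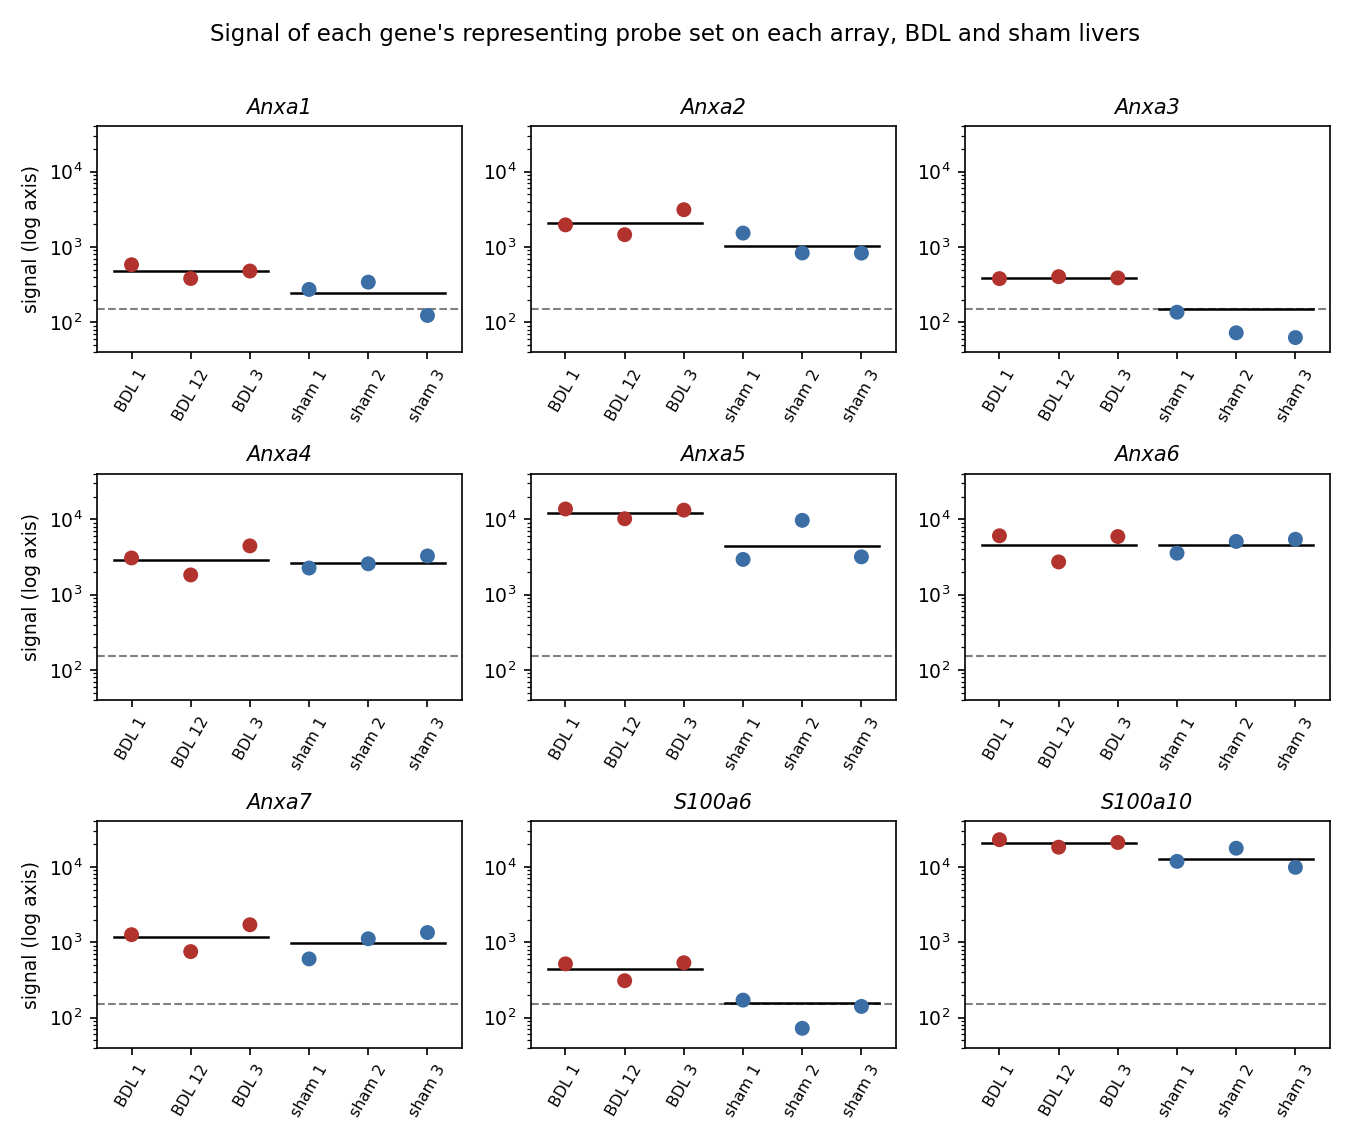
Deposited signal (log axis, arbitrary units) of the probe set that represents each of 9 genes on the 3 BDL arrays (red, left) and the 3 sham arrays (blue, right). The dashed line is the floor of 152.7 and black lines are geometric means with signals under the floor raised to it. Red points lie above all blue points for Anxa1, Anxa3, Anxa5, S100a6 and S100a10, and they overlap for Anxa2, Anxa4, Anxa6 and Anxa7.

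Anxa2 and S100a10 form the best-known annexin and S100 complex. Anxa2 had signals of 1968, 1458 and 3125 on the BDL arrays (mice 1, 12 and 3), against 1530, 834 and 831 on the sham arrays (mice 1, 2 and 3), an order kept for all genes. BDL replicate 12 lay just under sham replicate 1, so the groups overlapped by that pair. The difference was 1.03 (SE 0.39, 95% interval 0.13 to 1.92, limma adjusted p = 0.832), and it was 0.73 without BDL replicate 3 and 1.32 without sham replicate 1. S100a10 had signals of 22871, 18199.9 and 21013 in BDL, against 11802, 17635 and 9837 in sham liver. The groups did not overlap, but sham replicate 2 came close to BDL replicate 12. The difference was 0.70 (SE 0.32, interval -0.03 to 1.42, limma adjusted p = 0.832). Its other probe set gave 982, 780 and 885 in BDL and 556, 694 and 599.5 in sham liver, with the groups apart and a difference of 0.52 (SE 0.28). Sham replicate 2 was the highest sham array for S100a10 by both probe sets, whereas for Anxa2 the highest was sham replicate 1.

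S100a6 is a calcium sensor of dividing and stressed cells. Its signals were 517, 309 and 534 in BDL, against 171, 72.2 and 141 in sham liver. All BDL signals were higher, and sham replicates 2 and 3 were under the floor. With those at the floor the difference was 1.47 (SE 0.32, interval 0.75 to 2.19, limma adjusted p = 0.667), a 2.78-fold ratio that the floor understates. It was 1.87 with the floor at the 10th percentile and 0.45 with the floor at the 40th. Leaving out 1 array at a time gave 1.33 to 1.73. Only 1 sham signal was above the floor, so the filter was passed through the BDL signals. The floor narrowed the spread of the sham mice, and the SE, interval and p do not measure that spread in full.

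Anxa3 is linked to granule aggregation in human neutrophils. It had signals of 381, 404.5 and 389 in BDL, against 137, 72.9 and 63.0 in sham liver. The BDL mice were close together, and all sham signals were under the floor. The geometric mean in BDL was thus at least 2.56-fold higher than in sham liver, the bound being set by the floor (difference 1.36, SE 0.26, limma adjusted p = 0.667). Anxa3 entered the test only through its BDL signals, and the floor set its sham spread to 0, so it could not have been tested without a higher BDL value. Its p therefore does not measure the spread of sham mice, and the difference was 2.19 with the floor at the 10th percentile and 0.25 with the floor at the 40th.

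Anxa1, an inhibitor of inflammation induced by glucocorticoids, acts on leukocytes through formyl peptide receptors. The probe set that represents it (the one with the highest mean log2 signal) had signals of 582, 382 and 480.5 in BDL, against 274, 342 and 124 in sham liver. The groups were apart, with sham replicate 2 nearest to BDL replicate 12 and sham replicate 3 under the floor. The difference was 0.97 (SE 0.37, interval 0.12 to 1.81, limma adjusted p = 0.832), and it was 0.63 without sham replicate 3 and 0.51 with the floor at the 40th percentile. Another probe set had signals of 326, 256 and 300.3 in BDL and 219, 236 and 136 in sham liver, with a difference of 0.56 (SE 0.30). The array's names for both mark probes that may match related sequences. The remaining Anxa1 probe set was under the floor on all 6 arrays and was not tested.

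Anxa5 binds phosphatidylserine on the outer membrane of injured and dying cells and hinders coagulation there. Its signals were 13672, 10143 and 13191 in BDL, against 2928, 9662 and 3168 in sham liver. The groups did not overlap, yet sham replicate 2 lay just below BDL replicate 12 and far above the other sham mice. The difference was 1.45 (SE 0.47, interval 0.38 to 2.52, limma adjusted p = 0.832). Leaving out sham replicate 2 gave 2.01, and leaving out sham replicate 1 gave 1.14.

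Anxa4 marks the apical region of many epithelia, including bile ducts. Its signals were 3063, 1824 and 4427 in BDL, against 2252, 2562 and 3259 in sham liver. The BDL mice spanned the whole range of the sham mice. The difference was 0.13 (SE 0.38, interval -0.73 to 0.99), and the interval includes both directions.

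Anxa6, which has a duplicated annexin core and takes part in endocytosis, had signals of 6030, 2714 and 5890 in BDL, against 3547, 5072 and 5416 in sham liver. BDL replicate 12 was the lowest of all 6 arrays and the other BDL mice were the highest. The difference was -0.01 (SE 0.39, interval -0.89 to 0.88), and its sign depended on the arrays included. Anxa7, or synexin, which promotes fusion of secretory granules, had signals of 1258, 751 and 1705 in BDL, against 601, 1111 and 1344 in sham liver. The difference was 0.28 (SE 0.42, interval -0.69 to 1.25), and the groups overlapped. The other probe set of Anxa7 went the other way, with signals of 232, 192 and 127 in BDL, against 663, 202 and 22.9 in sham liver, and a difference of -0.53 (SE 0.53). That sign rested on sham replicate 1, without which the difference was 0.11, so the probe sets of Anxa7 disagreed within their errors.

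**Figure D2:**
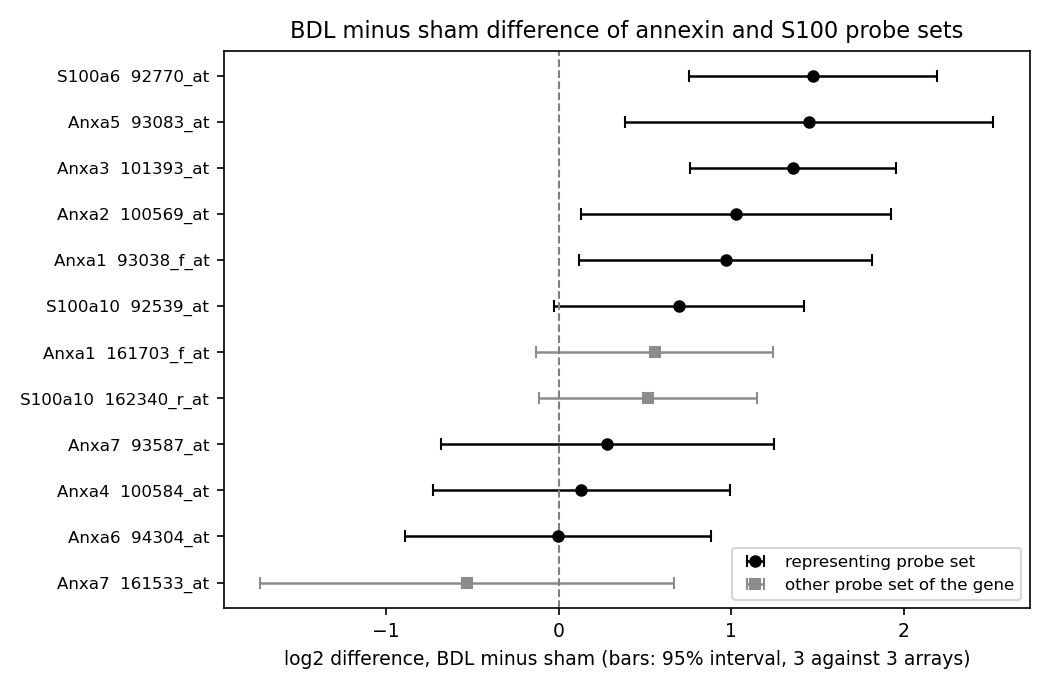
BDL minus sham log2 difference (x axis) of the 12 tested probe sets, with 95% intervals from limma over 3 against 3 arrays. Black circles are the probe sets that represent a gene and grey squares are further probe sets of Anxa1, Anxa7 and S100a10. The intervals of S100a6, Anxa5, Anxa3, Anxa2 and the representing probe set of Anxa1 lie above 0, and those of the other 7 probe sets include 0.

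Across arrays, the genes did not follow 1 common profile. BDL replicate 3 had the highest signal for Anxa2, Anxa4, Anxa7 and S100a6, and BDL replicate 1 for Anxa1, Anxa5, Anxa6 and S100a10. BDL replicate 12 was highest for Anxa3 alone. It was the lowest of the 3 BDL arrays for the other 8 genes, and the lowest of all 6 arrays for Anxa4 and Anxa6. Sham replicate 3 was the lowest array for Anxa1, Anxa2, Anxa3 and S100a10. The median over the 9 genes of the log2 signal, each gene centred on its own mean, came to 0.50, 0.17 and 0.67 for the BDL mice (1, 12, 3) and to -0.45, 0.01 and -0.72 for the sham mice (1, 2, 3).

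Leaving out each array in turn kept the differences of Anxa1, Anxa2, Anxa3, Anxa5, S100a6 and S100a10 above 0 in all 6 cases. Those of Anxa4, Anxa6 and Anxa7 crossed 0. Anxa3 moved least, between 1.33 and 1.38, where the floor fixes the sham side. Anxa5 moved most, between 1.14 and 2.01.

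**Figure D3:**
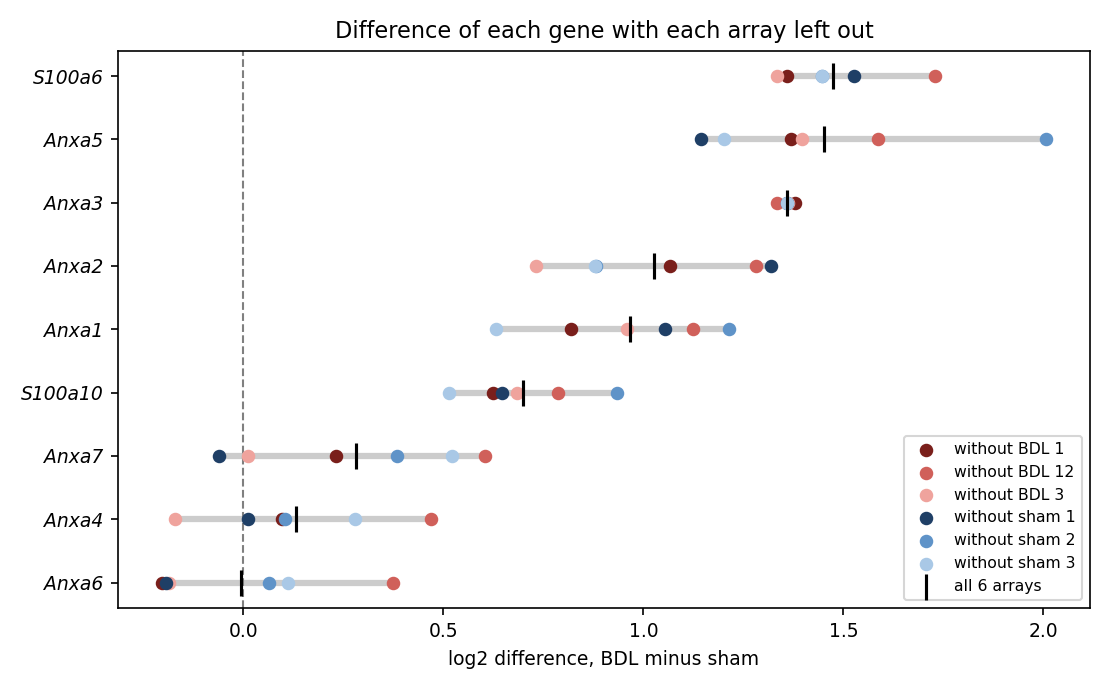
BDL minus sham log2 difference of each gene (x axis) with all 6 arrays (black bar) and with each array left out (points, red shades for BDL and blue shades for sham arrays). The upper 6 genes stay to the right of 0 with any array removed, and Anxa7, Anxa4 and Anxa6 reach both sides.

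The genes nearest to Anxa2 in profile were found by the root mean square distance between centred log2 signals over the 6 arrays, among 5557 other genes above the floor on every array. They were Ddr1, a collagen receptor (distance 0.24), Sptlc2, a subunit of serine palmitoyltransferase (0.24), Notch2, a receptor of biliary development (0.26), Crip2, a LIM-domain protein (0.29), and Sparc, a matrix protein (0.30). The median distance over all 5557 was 0.75, and S100a10, at 0.53, had rank 342 by this measure. S100a6 (0.37), Anxa3 (0.47) and Anxa1 (0.49) lay nearer to Anxa2, but were under the floor on some arrays and so were not candidates. BDL minus sham differences were 0.60 for Ddr1, 0.86 for Sptlc2, 0.79 for Notch2, 1.05 for Crip2 and 0.92 for Sparc. Since these genes were chosen by closeness to Anxa2 over the same arrays, differences in its direction follow from the choice. With only 6 arrays, closeness of this kind is a description.

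Other annexins and S100 proteins were counted as well. Of 16 listed genes, 13 had a probe set of their own and 10 were tested, 4 with positive and 6 with negative differences (49.2% of all tested genes were positive). Their median difference was -0.18, beside -0.01 over all tested genes. The median was 0 with the floor at the 40th percentile, and 0 genes passed the adjusted threshold of limma. S100a9, which pairs with S100a8 as calprotectin in neutrophils and inflamed tissue, had signals of 585, 304 and 1782 in BDL, against 192, 239 and 311 in sham liver. BDL replicate 12 lay among the sham mice, and the difference was 1.49 (SE 0.59, limma adjusted p = 0.832). S100a8 had signals of 1172, 384.5 and 2862 in BDL and 888, 693 and 465 in sham liver, a difference of 0.72 (SE 0.65) in which the groups overlapped. For both, BDL replicate 3 was the highest of all arrays, as it was for Anxa2, Anxa4, Anxa7 and S100a6.

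Among the remaining S100 genes, S100a4, a marker of motile mesenchymal and myeloid cells whose gene lies in the same cluster as S100a6, differed by 0.50 (SE 0.35) with overlapping groups. S100a3 (-0.68), S100a5 (-0.49) and S100a1 (-0.16) had negative differences with overlapping groups, and S100b and S100a14 differed by -0.19 and 0.04. For S100a3, sham replicate 1 was far above the other sham mice, at 1518 against 672 and 359. Further probe sets of S100a1 gave -0.75 (SE 0.46) and -0.88 (SE 0.51), and another of S100a14 gave -0.79 (SE 0.63), all with overlapping groups. On each of these further probe sets sham replicate 1 was the highest array, for S100a14 at 1159 against 456.5 and 190 in the other sham mice. S100g, the vitamin D-dependent calcium binder, differed by -0.55 (SE 0.29), with signals of 185, 57.3 and 59.1 in BDL below all of 301, 200.6 and 223 in sham liver. By representing probe sets it was the only 1 of the 10 tested genes with groups apart. For lower genes that is beside 4.27% of all tested genes, and for higher ones 0 beside 6.33%. Only 1 BDL signal of S100g was above the floor, so the floor limited both its difference and its BDL spread. Its other probe set was not tested. S100a13 differed by -0.23 on its representing probe set with overlapping groups. Another of its probe sets gave -0.47 with BDL below sham, while further ones gave -0.09 and -0.57 with overlapping groups. Anxa8, Anxa10 and S100a16 had fewer than 3 arrays above the floor and were not tested. Anxa8 reached 551 on sham replicate 1 and at most 124.5 on the other arrays.

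Genes whose products bind annexins or these S100 proteins were mixed. Of 28 listed, 27 had a probe set of their own and 23 were tested, 14 with positive and 9 with negative differences and a median of 0.16 (-0.0035 without BDL replicate 12). The groups were apart for 3 higher and 1 lower, beside 6.33% and 4.27% of all tested genes. By an unadjusted limma p under 0.05, 2 were higher and 0 lower, beside 3.42% and 2.28%, and 0 passed the adjusted threshold. Sri, or sorcin, a calcium-binding partner of Anxa7, had signals of 2220, 1559 and 1736 in BDL, all above 586, 1129 and 1084 in sham liver (difference 1.02, SE 0.35). Prkca, a calcium-dependent kinase that binds Anxa6, had signals of 342, 299 and 493 in BDL, above 162, 293 and 87.7 in sham liver (0.93, SE 0.36). Ahnak, a giant scaffold bound by the Anxa2 and S100a10 complex, had 442.5, 95.7 and 1107 in BDL and 245, 130 and 116 in sham liver, so the groups overlapped (1.24, SE 0.64). Cav1, the caveolar coat protein, differed by -1.05 (SE 0.46) with overlapping groups. The limma adjusted p was 0.832 for each of these 4 genes.

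Other calcium and phospholipid binding proteins were even between directions. Of 28 listed, 20 were tested, 10 positive and 10 negative, with a median of 0.00 that became -0.13 on removing sham replicate 3 and 0.088 on removing BDL replicate 12. With the groups apart 2 were higher and 1 lower (6.33% and 4.27% of all tested genes), and 0 were past the adjusted threshold of limma. Plscr1, a phospholipid scramblase that is also induced by interferon, had signals of 2233, 7740 and 4874 in BDL, against 1367, 1423 and 937 in sham liver. Here BDL replicate 12 was the highest array, and the difference was 1.84 (SE 0.46, limma adjusted p = 0.687). Pvalb, the muscle calcium buffer, differed by 0.93 (SE 0.33) with the groups apart. Rcn2, a calcium binder of the endoplasmic reticulum, differed by 0.79 (SE 0.37) and Rgn, the liver protein regucalcin, by -0.90 (SE 0.47), both with overlapping groups.

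Because Anxa1 is a glucocorticoid target, 16 genes induced by glucocorticoids were set beside it. All were tested, 10 were positive and 6 negative, and the median was 0.18. Removing sham replicate 1 turned that median to -0.13, removing BDL replicate 12 turned it to -0.056, and quantile normalization left 0.0069, so its sign rested on single arrays. With the groups apart 0 were higher and 2 lower, beside 6.33% and 4.27% of all tested genes. None had an unadjusted p under 0.05. Zfp36, an mRNA decay factor, and G6pc, glucose-6-phosphatase, were lower in every BDL mouse than in any sham mouse, with differences of -0.53 (SE 0.28) and -1.001 (SE 0.54). Fkbp5, a chaperone of the glucocorticoid receptor, and Lcn2, an acute phase lipocalin, had differences of 0.60 (SE 0.43) and 0.63 (SE 0.36), and their groups overlapped.

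**Figure D4:**
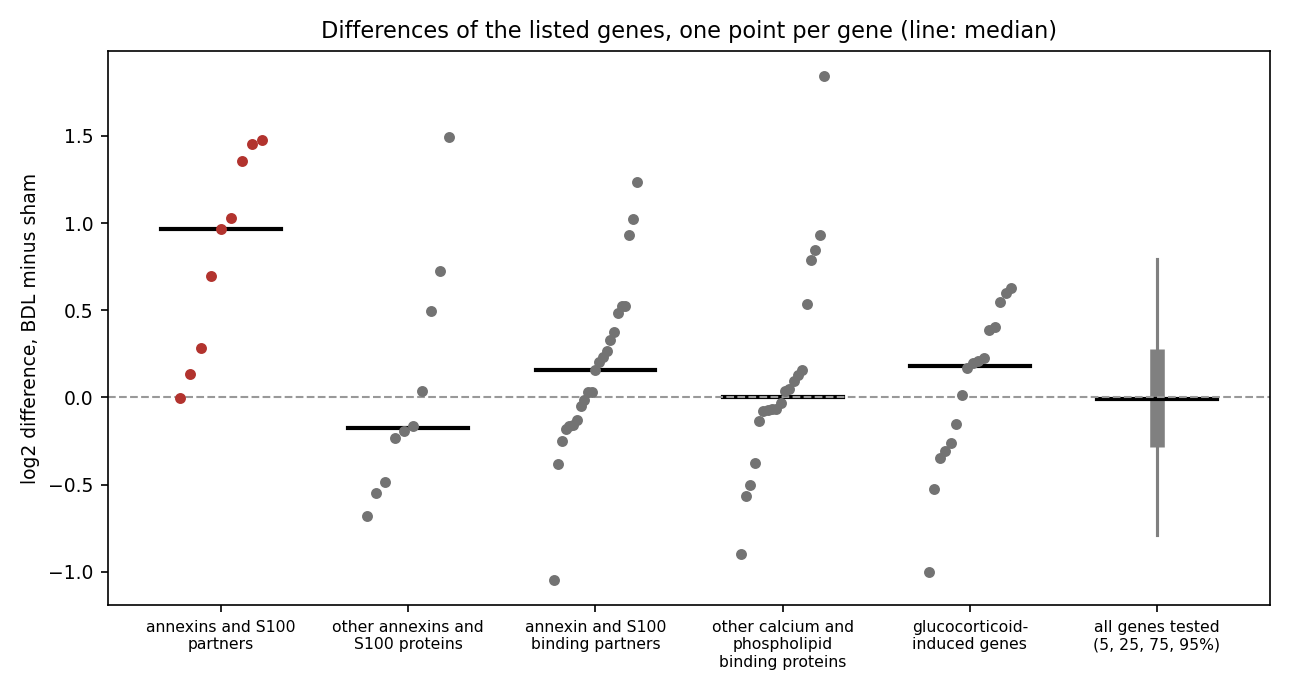
BDL minus sham log2 difference (y axis) of each tested gene by list, with the median as a black line. The rightmost bar gives the 5th to 95th percentiles of all tested genes (-0.79 to 0.80, thick part -0.28 to 0.28). The 9 annexin and S100 genes at the left have a median of 0.97, and the 4 other lists shown have medians from -0.18 to 0.18. Lists of cell type markers are not shown.

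Markers of other liver cells were measured on the same arrays. The summed signal of 14 macrophage and Kupffer cell markers, of 15 listed, was 18819, 41266 and 34433 in BDL, against 13200.0, 15350 and 8310 in sham liver, with the groups apart. Of that sum, 41.0% was Cd14, and without it the sums were 16946, 11574 and 18617 in BDL and 12483, 10782 and 7134 in sham liver, with overlap. BDL replicate 12 thus had the highest sum with Cd14 and the lowest BDL sum without it. The sum of 12 of 14 liver endothelial markers was 10958, 8569 and 10231 in BDL, against 5595, 10058 and 5354 in sham liver. Sham replicate 2 lay within the BDL range here. Without Eng, 49.0% of that sum, it did so too, at 5408 beside 4632 to 5738 in BDL and 2634 and 2726 in the other sham mice. By gene, 10 of 12 tested macrophage and Kupffer cell markers had positive differences and 2 negative, with a median of 0.90. Of 10 tested endothelial markers 9 were positive and 1 negative, with a median of 0.47. Over all tested genes 49.2% were positive and the median was -0.01. The other marker lists had medians from -0.85 (lymphocytes) to 0.32 (cholangiocytes and mesothelium). The part of macrophages or endothelium in the annexin differences was not tested.

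The sum of 8 of 12 cholangiocyte markers was 3280 to 4434 in BDL and 2195 to 3679 in sham liver, with Cldn7 under the floor throughout. That of 6 of 9 mesothelial markers was 27075 to 64554 in BDL and 12998 to 19052 in sham liver, with 95.1% of it from Krt8 and Krt18, keratins that hepatocytes share. Without both, a choice made after seeing the data, the sums of the other 4 markers were 1198 to 1401 in BDL and 903 to 2508 in sham liver, with overlap. Of these, Wt1 differed by -1.02 (SE 0.46), Upk3b by 0.13 (SE 0.34) and Krt19 by 0.32 (SE 0.35), with overlapping groups. Msln was not tested. For Wt1, sham replicate 1 was the highest array, at 1014 against 419 and 287 in the other sham mice. The sum of 11 of 12 stellate cell and fibroblast markers was 18230 to 23679 in BDL and 12071 to 21727 in sham liver. Of the neutrophil markers 12 of 13 were on the array, and their sums ran 62462 to 109895 for BDL and 49778 to 70163 for sham liver, of which 89.6% was Lcn2, also made by hepatocytes. The sum of 10 of 12 lymphocyte markers was 2375 to 2979 in BDL and 2658 to 8348 in sham liver, with Cd8a under the floor throughout, and that of 4 of 6 erythrocyte markers was 18006 to 19467 in BDL and 8605 to 21504 in sham liver. Groups overlapped in all of these but the mesothelial list with its keratins, and the part of these cell types in the annexin differences was not tested.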

How the data were processed

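Liver RNA of 3 BDL and 3 sham mice was hybridized to Affymetrix U74Av2 arrays with 20 µg of cRNA each, and replicate numbers come from the sample titles. The authors used Affymetrix's array software (MicroArray Suite, version 4.0, and the 3.1 release of GeneChip), per the labels' design text; its settings and scaling target were not stated. The deposited values are 1 linear intensity per probe set and array, all above 0. They were kept as deposited because the 2% trimmed means lay within 5% of each other. Background treatment is unknown, and for arrays their number limits the precision.

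Of 12488 probe sets, 66 controls were left out. Another 2880 were not tested, having fewer than 3 arrays above the floor of 152.7. Signals under the floor were raised to it and log2 was taken. BDL minus sham was fitted with limma 3.58.1 in R 4.3.3 (lmFit and eBayes, no covariates, 4 residual and 4.67 prior degrees of freedom), and the fit was tested on simulated data. Gene names come from the platform's annotation, with symbols brought up to date through RefSeq gene identifiers. One gene symbol was held by 10833 probe sets, several by 396 and none by 1193, and the last 2 kinds were not named. Where a gene had several probe sets, the brightest by mean log2 signal represents it.

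The members, lists and tests were chosen with earlier results of these data known. Named are all listed annexin and S100 genes, the rest of that family on the array, up to 4 tested genes of each other list with the smallest unadjusted p, and the 5 genes nearest to Anxa2. Alternatives were quantile normalization, a floor at the 10th or at the 40th percentile, adding 50 in place of a floor, testing every probe set, requiring signals above the 50th percentile, a variance trend in eBayes, each array left out and the replicate number as a block.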

Additional observations from a re-analysis of the deposited data

How the results depend on the processing

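Over all probe sets, 0 passed an adjusted p of 0.05 under every alternative but the one without a filter, which called 3, Anxa3, Ate1 and Myc. For all 3 every sham signal lay under the floor, so the floor set their sham spread to 0 and these calls do not measure it. That setting adds the 2880 probe sets that lie mostly at the floor. At an unadjusted p under 0.05, 324 of all probe sets were higher in BDL and 228 lower, and 188 to 382 and 115 to 794 with each array left out. With groups apart 603 were higher and 412 lower, and 906 to 1207 and 648 to 1720 with each array left out, since 3 against 2 arrays separate more easily. Under the filter at the 50th percentile 109 probe sets were lower at that p and 234 were lower with groups apart. Of the annexin and S100 genes, 5 to 7 had groups apart and 3 to 5 had an unadjusted p under 0.05 with each array left out. The stricter filter, chosen for these counts after seeing the data as were all alternatives for them, tested fewer of the genes and left 2 and 3.

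Differences of Anxa1, Anxa2, Anxa3, Anxa5, S100a6 and S100a10 kept their sign on each probe set wherever they were tested, but their size moved. Over all alternatives, the representing probe sets ran from 0.51 (higher floor) to 1.37 (replicate block) for Anxa1, 0.73 to 1.32 (arrays left out) for Anxa2, 0.25 to 2.19 (higher and lower floor) for Anxa3, 1.14 (without sham replicate 1) to 2.14 (replicate block) for Anxa5, 0.45 to 1.87 (higher and lower floor) for S100a6, and 0.51 (without sham replicate 3) to 1.02 (replicate block) for S100a10. With the replicate block the difference rests on replicates 1 and 3 alone, since BDL replicate 12 and sham replicate 2 share no number. For Anxa1, Anxa5 and S100a10 those unmatched arrays are where the groups came closest. The second Anxa1 probe set gave no value with the floor at the 40th percentile, being at the floor throughout. With each array left out, Anxa4 ranged from -0.17 (without BDL replicate 3) to 0.47, Anxa6 from -0.20 to 0.37, and Anxa7 from -0.060 (without sham replicate 1) to 0.60 on its representing probe set and from -0.95 to 0.11 on the other. Anxa6 also turned to 0.009 after quantile normalization, 0.07 without sham replicate 2, 0.11 without sham replicate 3 and 0.44 with the replicate block; the cause was not tested. The median of annexin and S100 binding partners was 0.032 with the higher floor and -0.0035 to 0.16 with each array left out.

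The replicate numbers shared by the groups are 1 and 3, and deviations of same-numbered arrays correlated at 0.21 and 0.25 over probe sets, too few pairs to show pairing. With the replicate block, where only replicates 1 and 3 of each group set the difference, 651 probe sets had an unadjusted limma p under 0.05. Without it there were 552, and 0 passed the adjusted threshold either way. No detection calls were used, so a low signal is known only by the floor.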

Other observations

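Probe sets annotated to several genes were assigned to none of them. One of these is annotated to S100a11, which binds Anxa1, to the pseudogene S100a11-ps and to Gm12854. Its signals were 2478, 2020 and 3535 in BDL, against 199, 932 and 763 in sham liver. All BDL signals lay above all sham signals, at a difference of 2.32 (SE 0.57, limma adjusted p = 0.667), a 4.998-fold ratio of geometric means, and the share of each of the 3 genes in this signal is unknown. The probe set annotated to Anxa11, Gm2260 and Gm2274 had signals of 2132, 2391 and 2951 in BDL, against 3192, 2022 and 2931 in sham liver, with overlapping groups and a difference of -0.11 (SE 0.31).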
